A study of Mus musculus with 4 samples.

Results

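The collagen chain genes are the 44 genes on the array whose name is Col, a type number, the letter a and a chain number. They were found by that name among the spots that are not controls, where they hold 91 of 56604 probes and 109 spots per array, out of 37325 gene symbols in all. Each gene codes for 1 chain of a collagen, and 14 genes had 1 probe, 16 had 2, 11 had 3 and 3 had 4.

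A collagen molecule is built from chains that wind into a triple helix, in which glycine recurs at a fixed spacing along each chain. Fibrillar collagens pack into the cables that give connective tissue its tensile strength, type IV collagen forms the sheet-like network of basement membranes, and type VI collagen forms beaded filaments near cells. FACIT collagens (fibril-associated collagens with interrupted triple helices) sit on the surface of fibrils, and the remaining chains form hexagonal networks, anchor epithelium to the tissue below, span the cell membrane or carry large side chains of sugar.

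RNA of whole C57BL/6 mouse embryos was hybridized to 4 single-colour Agilent arrays of 1 slide, and the brightness of Cy3 was read at each probe. The 4 groups, with 1 array each, were WT embryos at embryonic day (E) 8.5, *Dyrk2*-/- embryos at E8.5, WT embryos at E10.5 and *Dyrk2*-/- embryos at E10.5. The knockout alleles are deletions in *Dyrk2* made with the CRISPR/Cas9 nickase system, in several lines, and neither the line nor the number of embryos behind each RNA is given in the sources used here. With 1 array per group no value has a replicate error and no test between genotypes at a stage, or between stages within a genotype, was possible, and having only 4 arrays limits how precise every value is.

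Levels are given as log2 of the processed signal minus the 75th percentile of the same array, so that 0 is a bright probe, and 2 genes' levels cannot be set against each other because probes differ in how well they bind. Of a gene's probes, the brightest on average over the 4 arrays stands for it. A probe marked by the scanner software as well above background on an array counts as measured there, and a ratio is called changed at 1.5-fold or more. In the comparison of genotypes the question was which chains differ in embryos labelled as lacking *Dyrk2*, and in that of stages which chains differ between early organogenesis and E10.5.

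The label was checked on *Dyrk2* itself. The brighter of its 2 probes, at chr10:118296479-118296538 (mm9), read 0.06 on the WT and 0.76 on the knockout array at E8.5, then −0.31 and 0.34 at E10.5. The other probe, at chr10:118295164-118295223, gave −0.23 and −0.20 for E8.5, then −0.28 and −0.01 for E10.5. Neither was lower on a knockout array, except the other probe at E8.5 with spike-in scaling or without scaling, and whether either probe lies within the deleted bases was not examined, so these values do not check the genotype. The arrays are called KO-labelled below.

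The sex-linked transcripts differed between the arrays as well. *Xist*, the RNA of the inactive X chromosome, was well above background only on the KO-labelled E10.5 array, at −0.37, and lay between −7.11 and −6.85 on the other 3. Conversely, those 3 arrays and not the KO-labelled E10.5 array had the Y-linked *Uty*, *Kdm5d*, *Eif2s3y* and *Ddx3y* well above background at their brightest probe. Genotype and the sex of the embryos cannot be told apart at E10.5, which bears on the X-linked chains *Col4a5* and *Col4a6*. Nor can stage and sex be told apart between the KO-labelled arrays, which bears on the stage ratios there and the stage fit of these chains.

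Of the 44 chains, 35 were well above background on at least 1 array and 31 on all 4. On the WT and KO-labelled arrays this held for 31 and 31 chains at E8.5 and for 35 and 34 at E10.5, or 70.5%, 70.5%, 79.5% and 77.3%, beside 54.9%, 53.0%, 55.5% and 55.7% of all genes. The 9 chains not well above background on any array, by any of their probes, were *Col4a3* and *Col4a4* of the basement membrane class, *Col6a5* and *Col6a6* of the beaded class, *Col10a1*, *Col15a1*, *Col17a1*, *Col19a1* and *Col28a1*. *Col5a3*, *Col14a1* and *Col20a1* were measured at E10.5 only, and *Col6a4* on the WT E10.5 array only.

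**Figure D1:**
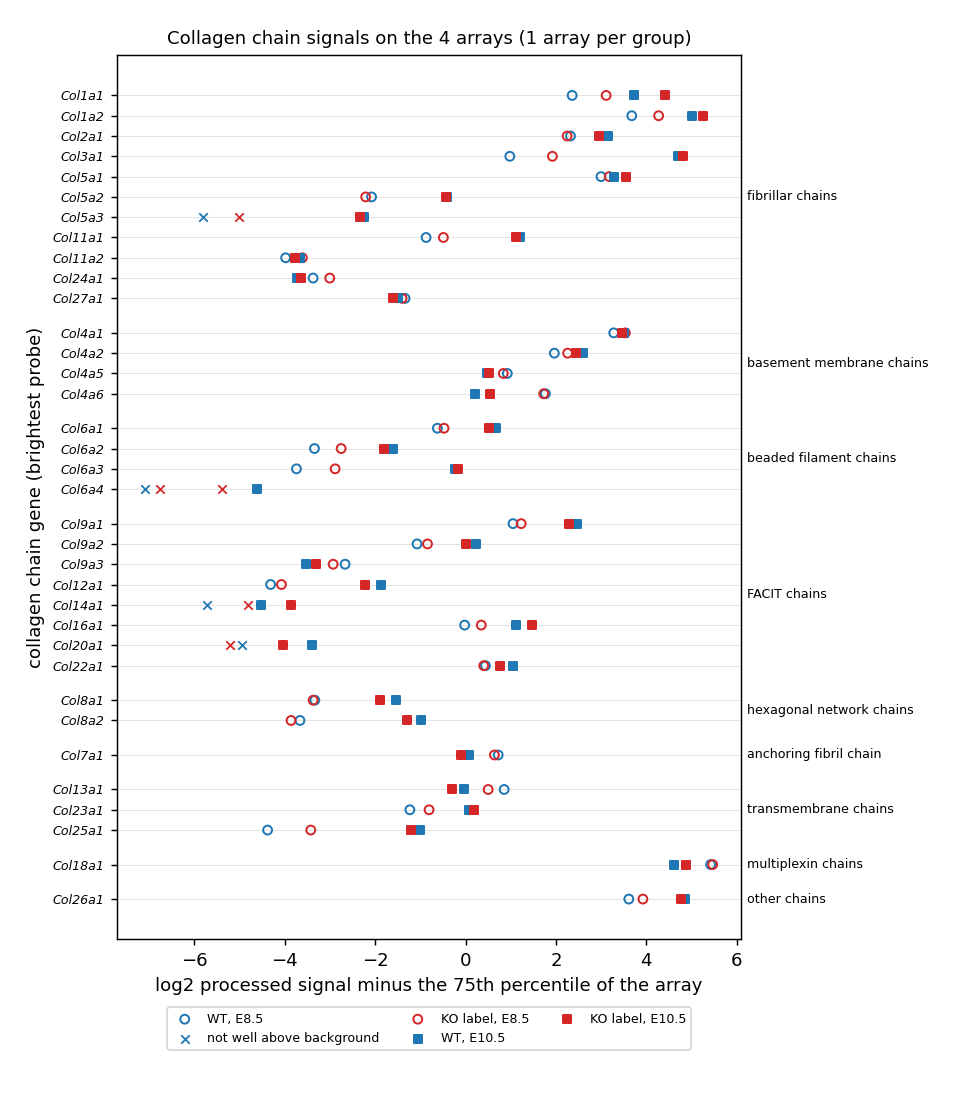
Level of each of the 35 chains measured on at least 1 array, at its brightest probe, with 1 point per array and chains grouped by class. The x axis is log2 processed signal minus the 75th percentile of the array, circles are E8.5, squares E10.5, blue WT, red the arrays labelled knockout, and crosses mark arrays where the probe was not well above background. *Col3a1* and *Col6a3* have the widest gap between stages among chains measured on all 4 arrays.

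The stages were compared first, since the gaps between them were the widest. In WT, 29 of the 35 measured chains were changed 1.5-fold or more between E8.5 and E10.5, beside 36.3% of all genes tested. Of these 24 were higher at E10.5, beside 18.8% of all genes, and 5 were lower, beside 17.5%. The median log2 ratio of the chains was 1.29, or 1.25 with bounds in place of ratios in which 1 array was dim, and that of all genes was −0.08. A chain measured only at E10.5 had to be higher there, which holds for 4 of the 24. With bounds 27 chains were changed, 22 higher and 5 lower.

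Between the KO-labelled arrays, 26 of 34 measured chains were changed between stages (25 with bounds), beside 31.5% of all genes. There 21 were higher at E10.5 (17.5% of all genes) and 5 lower (13.9%), with a median log2 ratio of 0.94 beside −0.05 for all genes. Scaling by spike-in probes moved the median of all genes by −0.07 in WT and 0.64 between the KO-labelled arrays, and no scaling by 0.18 and 0.31. Relative to the median of all genes the chains' median was 1.38 in WT and 0.996 between the KO-labelled arrays, a difference that these scalings cannot alter because each adds 1 constant to every gene of an array. Of all genes called, 51.8% were higher at E10.5 in WT, 45.2% with spike-in scaling and 66.9% without scaling, and 55.7% between the KO-labelled arrays, 91.6% with spike-in scaling and 79.5% without scaling.

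Both stages and genotypes were fitted together with limma (lmFit and eBayes with an intensity trend), whose model has 1 residual degree of freedom. For each probe it holds only how far the gap from WT to KO-labelled array at E8.5 departs from that at E10.5. Moderation, which pools error over probes, brought the total to 9.07 degrees of freedom. The SEs and p values by limma given here therefore do not measure the spread between embryos. Of 34 chains tested, 25 passed an adjusted p of 0.05 for the stage, beside 37.6% of all genes and 35.3% of all probes. Of these 21 rose (17.2% of genes, 15.7% of probes) and 4 fell (20.4% and 19.6%), and each moved the same way in both genotypes. With spike-in scaling limma called 11 of them as rises and 0 as falls, and the classes are given below with their counts under it. Under that scaling 22 chains were 1.5-fold or more higher and 5 lower in WT, beside 3712 and 4496 of 21788 genes. Between the KO-labelled arrays 24 were higher and 0 lower, beside 10720 and 985 of 21405 genes. These counts include chains measured only at E10.5. The chains' medians were 1.22 and 1.58, beside −0.15 and 0.59 for all genes. Of the 34 chains, *Col5a3*, *Col14a1* and *Col20a1* entered the fit only through their E10.5 arrays, a filter that by itself favours a rise. Of the 31 chains measured at both stages 19 rose and 4 fell, or 61.3% and 12.9%, beside 15.2% and 20.3% of all genes measured at both stages. With spike-in scaling limma called 9 of these 31 as rises and 0 as falls.

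Among the 10 fibrillar chains measured at both stages, limma called 6 as rises with stage and 4 were not called. With spike-in scaling it called 3 as rises. Of the 11 measured fibrillar chains, *Col5a3* was measured at E10.5 alone, which by itself favours a positive ratio. Over the 11 chains the median log2 ratio with spike-in scaling was 1.26 in WT, with 9 above 0. Between the KO-labelled arrays it was 1.62, with 11 above 0. Under the main scaling these medians were 1.33 and 0.98. *Col3a1*, the chain of type III collagen in elastic tissues such as skin and vessels, read 0.98 on the WT and 1.92 on the KO-labelled array at E8.5, then 4.70 and 4.82 at E10.5. Both E10.5 arrays were far above both E8.5 arrays, with log2 ratios of 3.72 in WT and 2.89 between the KO-labelled arrays. The fitted log2 difference was 3.31 with an SE of 0.18 and an adjusted p of 2.86e-06 by limma.

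*Col1a1* and *Col1a2* code for the chains of type I collagen, the main collagen of bone, tendon and skin. *Col1a2* read 3.68 on the WT and 4.27 on the KO-labelled array at E8.5, then 5.005 and 5.25 at E10.5. Its log2 ratio between stages was 1.33 in WT, beside 1.36 for *Col1a1*, and 0.98 and 1.30 between the KO-labelled arrays. Both chains thus rose with stage in each genotype. With spike-in scaling neither was called (adjusted p of 0.155 for *Col1a1* and 0.275 for *Col1a2* by limma), although no ratio of theirs changed sign.

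*Col11a1*, a minor chain of cartilage fibrils, rose by a log2 ratio of 2.09 in WT and 1.62 between the KO-labelled arrays. *Col5a2*, a chain of the type V collagen that joins type I in fibrils, rose by 1.68 and 1.77. *Col2a1*, the main chain of cartilage, which the notochord also makes, rose by 0.83 and 0.70.

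*Col5a3* was well above background only at E10.5, where it read −2.25 on the WT and −2.34 on the KO-labelled array, after −5.80 and −5.01 at E8.5. Against the background of the E8.5 arrays it was at least 5.94-fold higher at E10.5 in WT and at least 4.55-fold higher between the KO-labelled arrays. Since it was measured at E10.5 alone, its stage test could hardly point down, and no p is given for it. The fibrillar chains not called were *Col5a1*, *Col11a2*, *Col24a1* and *Col27a1*, with log2 ratios of 0.29, 0.31, −0.36 and −0.15 in WT, the last positive without scaling. Between the KO-labelled arrays the ratios were 0.37, −0.17, −0.63 and −0.21, where *Col24a1* was 1.5-fold lower. With spike-in scaling the last 3 turned positive, that of *Col24a1* to 0.005, and without scaling those of *Col11a2* and *Col27a1* did. *Col5a1* was called, as a rise, under 5 alternatives of the fit.

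The basement membrane class differed from the fibrillar class in its values, though the difference between classes was not tested. Its median log2 ratio over 4 measured chains was −0.10 in WT and −0.20 between the KO-labelled arrays, the former positive with quantile normalization, in the deposited table and without scaling, the latter with spike-in scaling or without scaling. *Col4a1*, which with *Col4a2* makes the type IV collagen of nearly all basement membranes, read 3.28 on the WT and 3.54 on the KO-labelled array at E8.5, then 3.52 and 3.45 at E10.5. Neither stage stood apart from the other, and the stage was not called (adjusted p = 0.667 by limma).

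*Col4a2* gave log2 ratios of 0.64 in WT and 0.18 between the KO-labelled arrays, with an adjusted p of 0.0512 that ran over the alternatives from 0.000769 without scaling to 0.917 with spike-in scaling, and 6 of them called a rise. *Col4a1* and *Col4a2* are read in opposite directions, and in the RefSeq promoter table (GRCm38.p6), which held 35 of the 44 chains, the start of each lies 21 bases inside the other, so that their first bases overlap. The same table puts the start sites of *Col4a5* and *Col4a6* head to head on the X chromosome with 1343 bases between them.

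*Col4a6* fell with stage, and its neighbour *Col4a5* was called, as a fall, without a filter only. With spike-in scaling the call of *Col4a6* was lost, although its log2 ratio stayed negative in each genotype. *Col4a6* read 1.77 on the WT and 1.73 on the KO-labelled array at E8.5, then 0.22 and 0.54 at E10.5. Its log2 ratio was −1.55 in WT and −1.19 between the KO-labelled arrays, with a fitted difference of −1.37 (SE 0.14, adjusted p = 0.000116 by limma). *Col4a5* gave −0.45 in WT and −0.31 between the KO-labelled arrays, which turned positive with spike-in scaling between the KO-labelled arrays, and its other measured probe gave 0.01 and −0.19.

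All 3 beaded filament chains that limma tested rose with stage, 2 of them with spike-in scaling. *Col6a3*, the long chain of type VI collagen, read −3.74 on the WT and −2.89 on the KO-labelled array at E8.5, then −0.24 and −0.17 at E10.5. Its log2 ratios were 3.51 and 2.71, beside 1.73 and 0.94 for *Col6a2*, which read −3.34 and −2.75 at E8.5, then −1.61 and −1.81 at E10.5. A further *Col6a3* probe was well above background only on the WT E8.5 and the KO-labelled E10.5 array. It was at least 1.09-fold lower at E10.5 in WT and at least 1.12-fold higher between the KO-labelled arrays. *Col6a1*, whose probe was the brightest of the class, read −0.62 and −0.48 at E8.5, then 0.67 and 0.53 at E10.5.

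*Col6a4* was well above background only on the WT E10.5 array, at −4.62, which puts it at least 1.15-fold above the WT E8.5 array. The other arrays read −7.09 (WT) and −6.77 at E8.5 and −5.38 on the KO-labelled E10.5 array. It lies with *Col6a5* and *Col6a6*, which were not measured on any array, on chromosome 9 of the array annotation. No other probe of these 3 genes was well above background.

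Of 6 FACIT chains measured at both stages, limma called 5 as rises with stage, and with spike-in scaling only *Col12a1* of them. Of the 8 measured FACIT chains, *Col14a1* and *Col20a1* were measured at E10.5 alone, which by itself favours a positive ratio. Over the 8 chains the median log2 ratio with spike-in scaling was 1.18 in WT, with 7 above 0. Between the KO-labelled arrays it was 1.635, with 8 above 0. Under the main scaling these medians were 1.25 and 0.996. *Col9a1*, a chain of the type IX collagen on cartilage fibrils, read 1.05 on the WT and 1.23 on the KO-labelled array at E8.5, then 2.46 and 2.28 at E10.5. *Col12a1*, found on fibrils of tendon and fascia, rose by a log2 ratio of 2.45 in WT and 1.84 between the KO-labelled arrays. *Col9a2* rose by 1.30 and 0.85, and *Col16a1* by 1.13 and 1.13, which turned to −0.13 and −0.01 with the mean over all its probes.

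*Col22a1*, known from junctions of muscle and tendon, rose by 0.61 and 0.36. *Col20a1*, measured at E10.5 alone and at −4.96 and −5.22 on the E8.5 arrays, was at least 2.66-fold higher at E10.5 in WT and at least 1.39-fold higher between the KO-labelled arrays. *Col9a3* and *Col14a1* were not called, except *Col9a3* as a fall under 3 alternatives and *Col14a1* as a rise under 2, and *Col9a3* gave log2 ratios of −0.86 and −0.38, the latter positive with spike-in scaling and with the mean over its probes.

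Among the other classes, both measured chains of the hexagonal networks rose, with spike-in scaling too. *Col8a2* read −3.66 on the WT and −3.86 on the KO-labelled array at E8.5, then −0.98 and −1.30 at E10.5. *Col8a1* gave log2 ratios of 1.79 and 1.47. Type VIII collagen is known from vessels and from the sheet under the corneal endothelium.

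The transmembrane chains moved in both directions, and with spike-in scaling only the rise of *Col25a1* was called. *Col25a1*, a chain found in neurons, read −4.38 on the WT and −3.43 on the KO-labelled array at E8.5, then −1.01 and −1.20 at E10.5. *Col23a1* rose by log2 ratios of 1.30 and 0.99, while *Col13a1* fell. *Col13a1*, which is placed at cell adhesion sites, read 0.85 and 0.50 at E8.5, then −0.04 and −0.29 at E10.5.

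*Col7a1*, the chain of the anchoring fibrils under the epidermis, read 0.72 on the WT and 0.64 on the KO-labelled array at E8.5, then 0.08 and −0.11 at E10.5. *Col18a1*, a basement membrane collagen that carries heparan sulfate, read 5.42 and 5.47 at E8.5, then 4.61 and 4.88 at E10.5. Both fell with stage by limma, at adjusted p of 0.00401 and 0.00196, but with spike-in scaling neither passed and *Col18a1* was 0.05 higher at E10.5 between the KO-labelled arrays. *Col26a1* read 3.61 and 3.92 at E8.5, then 4.86 and 4.76 at E10.5, and rose. With spike-in scaling it was not called, although its log2 ratios were 1.18 in WT and 1.48 between the KO-labelled arrays.

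**Figure D2:**
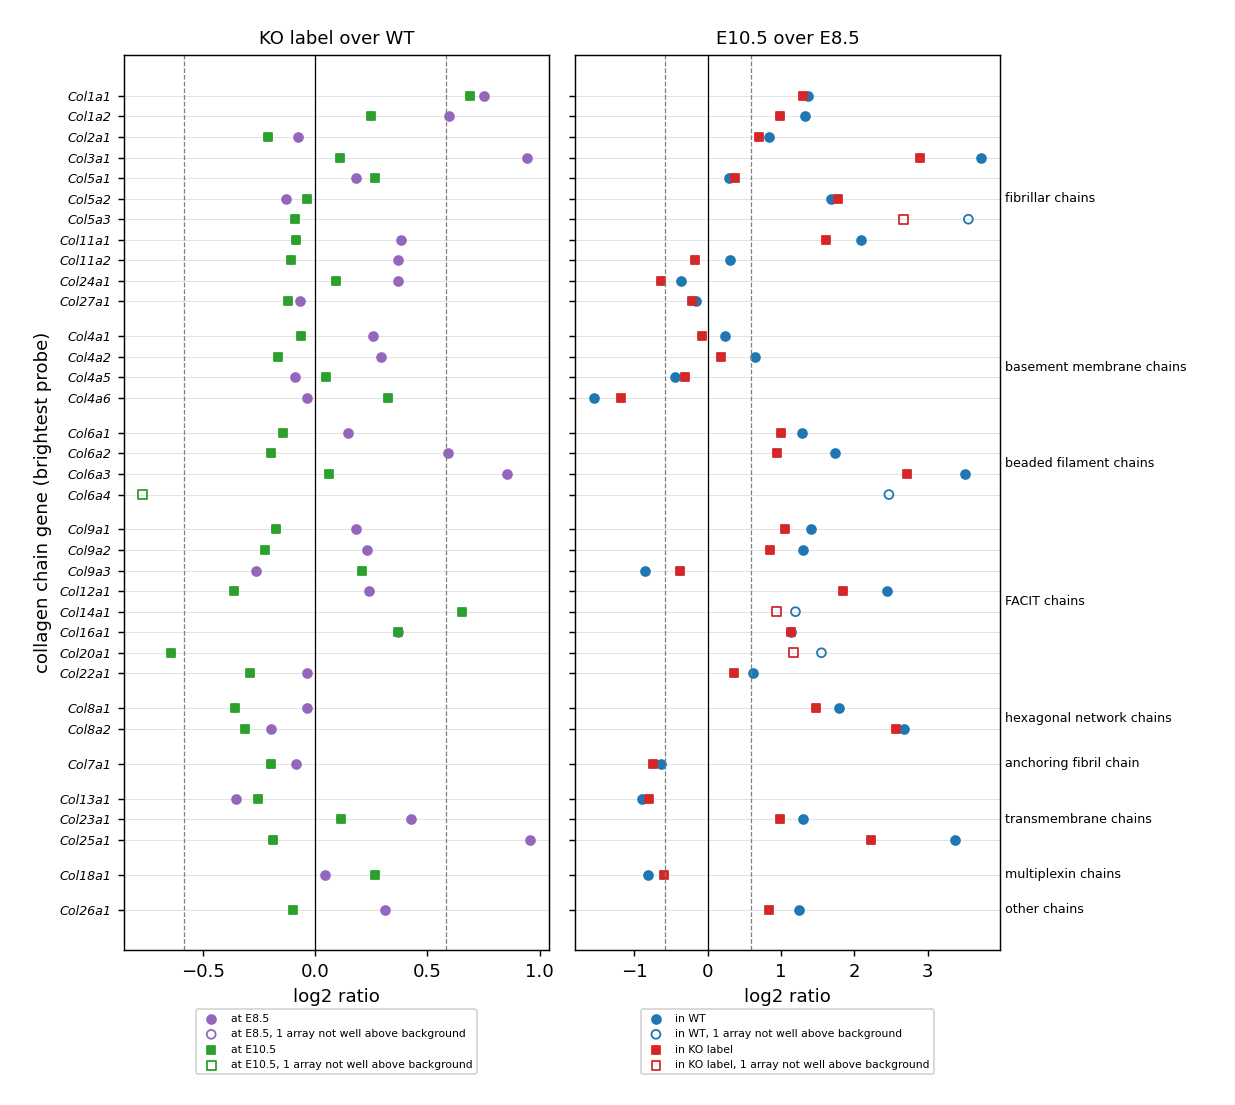
Log2 ratios of the 35 measured chains at their brightest probe, left for the array labelled knockout over WT at E8.5 and E10.5, right for E10.5 over E8.5 in WT and between the arrays labelled knockout. Dashed lines mark 1.5-fold, and open symbols are ratios in which 1 of the 2 arrays was not well above background. The stage ratios reach 3.72 in WT, whereas the genotype ratios lie between −0.77 and 0.96, and with spike-in scaling 14 of the E8.5 and 8 of the E10.5 genotype ratios and 7 of the stage ratios between the arrays labelled knockout change sign.

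Between the genotypes at E8.5, 6 of 31 measured chains were changed 1.5-fold or more (19.4%), beside 11.7% of all genes tested. All 6 were higher on the KO-labelled array, beside 5.14% of all genes, and 0 were lower, beside 6.52%. They were *Col1a1*, *Col1a2*, *Col3a1*, *Col6a2*, *Col6a3* and *Col25a1*. With normexp background correction only *Col1a1* and *Col3a1* of these passed 1.5-fold, with *Col1a2* at 0.51, *Col25a1* at 0.41, *Col6a2* at 0.36 and *Col6a3* at 0.42. *Col6a2* was below 1.5-fold under all 5 alternatives, which are normexp, quantile normalization, spike-in scaling, no scaling and the deposited table. The median log2 ratio of the chains was 0.23, with 20 above 0 and 11 below, and that of all genes was −0.02. Since the RNA came from whole embryos, fewer cells of a type and less RNA per cell cannot be told apart here.

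This count changed with the scaling as well. Spike-in scaling moved the median of all genes by −0.55 at E8.5. With it 0 chains were higher and 10 were lower by 1.5-fold, beside 291 and 9916 of 20848 genes. The chains' median was then −0.32, although all 6 chains above kept a positive ratio, between 0.04 and 0.41. Without scaling the shift was −0.26 and the chains' median −0.03. There 3 chains were higher (*Col3a1*, *Col6a3* and *Col25a1*) and 1 lower, beside 512 and 3206 of 20848 genes. The common shift of spike-in scaling turned the sign of 14 of 31 ratios. It leaves the chains' median relative to that of all genes, 0.25, where it was by construction. Of all genes called at E8.5 44.1% were higher on the KO-labelled array, 2.85% with spike-in scaling and 13.8% without scaling.

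The 3 fibrillar chains on that list were *Col1a1*, *Col1a2* and *Col3a1*, and the median of 10 fibrillar chains was 0.37 (−0.18 with spike-in scaling). *Col1a1* read 2.36 on the WT and 3.11 on the KO-labelled array at E8.5, then 3.72 and 4.41 at E10.5. On both stages the KO-labelled array was the higher, with log2 ratios of 0.75 and 0.69, and it was the only chain past 1.5-fold at both stages, though with spike-in scaling it passed at E10.5 alone and without scaling at neither stage. *Col1a2* and *Col3a1* gave 0.60 and 0.94 at E8.5, but 0.25 and 0.11 at E10.5, the last negative without scaling.

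The probe of *Col1a1* was printed 10 times per array, at chr11:94813075-94813134 (mm9). At E8.5 its spots ran from 2.20 to 2.47 on the WT array and from 3.03 to 3.24 on the KO-labelled array, where 8 spots were kept, so that the spots did not overlap. At E10.5 they ran from 3.52 to 3.90 and from 4.26 to 4.58. These spots share 1 RNA and give the error of an array, not the spread between embryos.

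A second *Col1a1* probe with 10 spots, which shares bases with the first, gave ratios of 0.52 and 0.63, and there the spots of the E8.5 arrays did overlap, from 2.10 to 2.41 and from 2.28 to 3.03. A further probe on another stretch of the gene gave 1.19 and 0.57. In the fit over both stages *Col1a1* had a genotype difference of 0.72 with an adjusted p of 0.155 by limma, and over the alternatives it ran from 9.83e-07 without a filter to 1.0 with spike-in scaling.

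Among the other classes at E8.5, the beaded chains *Col6a3* and *Col6a2* gave log2 ratios of 0.86, which turned to −0.32 with the mean over all its probes, and 0.59, and *Col6a1* gave 0.15, negative with spike-in scaling or without scaling. The transmembrane chain *Col25a1* gave 0.96. A further *Col6a3* probe went the other way, at −4.60 on the WT E8.5 array and not well above background, at −6.67, on the KO-labelled one. The 4 measured basement membrane chains lay between −0.09 and 0.29, with a median of 0.11 that turned to −0.44 with spike-in scaling and −0.15 without scaling, and none was changed 1.5-fold.

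The FACIT chains had a median log2 ratio of 0.21 over 6 chains at E8.5, which turned to −0.34 with spike-in scaling and −0.05 without scaling, and none was changed 1.5-fold. *Col13a1* had the lowest ratio of any chain, −0.35, which turned positive with the mean over its probes, and another of its probes, not well above background on the WT array, was at least 2.13-fold higher on the KO-labelled one. *Col8a2*, *Col9a3* and *Col5a2* gave −0.20, −0.26 and −0.13, of which the first and last turned positive with normexp, the first also with the mean over its probes.

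At E10.5, 4 of 35 measured chains were changed 1.5-fold or more between the genotypes (11.4%), beside 7.72% of all genes, or 3 with bounds in place of ratios in which 1 array was dim. There were 2 higher on the KO-labelled array (3.5% of all genes) and 2 lower (4.22%). The median log2 ratio was −0.10, with 13 above 0 and 22 below, against 0.00 for all genes. Spike-in scaling moved the median of all genes by 0.16 and turned that of the chains to 0.06. Of all genes called there 45.4% were higher on the KO-labelled array, 69.3% with spike-in scaling and 28.9% without scaling.

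The chains higher at E10.5 were *Col1a1* and *Col14a1*, a FACIT chain of tendon and skin. *Col14a1* read −5.71 on the WT and −4.81 on the KO-labelled array at E8.5, neither well above background, and −4.52 and −3.86 at E10.5. The chains lower were *Col20a1*, at −3.41 and −4.05 at E10.5, and *Col6a4*, at −4.62 and −5.38 with the latter not well above background. The fold of *Col6a4* was at least 1.11. With normexp *Col14a1* (0.18), *Col20a1* (−0.15) and *Col6a4* (−0.05) were below 1.5-fold, without scaling *Col1a1* (0.56) and *Col14a1* (0.52) were, and with spike-in scaling *Col20a1* (−0.48) was.

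The class medians at E10.5 were −0.04 for 11 fibrillar chains, −0.01 for 4 basement membrane chains, −0.17 for 4 beaded chains and −0.20 for 8 FACIT chains. With spike-in scaling the first and second of these turned to 0.13 and 0.16, and with normexp the first turned to 0.01. *Col4a5* and *Col4a6*, on the X chromosome, gave 0.05 and 0.33, the former negative without scaling. The other measured probe of *Col4a5* gave −0.37, in the opposite direction.

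In the fit over both stages 0 of 34 chains passed an adjusted p of 0.05 for the genotype by limma, beside 0.0285% of all genes (0.019% higher and 0.00951% lower) and 0.0186% of all probes (0.0124% and 0.00619%), and 4 had an unadjusted p under 0.05. No other tool was run. The deposited table gave 1 chain, *Col1a1*, and the fit without a filter 2, *Col1a1* and *Col3a1*, each higher on the KO-labelled arrays.

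Several chains have more than 1 measured probe, each with its own ratio. At E8.5, 6 of 10 chains with at least 2 measured probes had the same direction at each probe, and at E10.5 4 of 13 did. Between stages the same held for 10 of 13 chains in WT and 12 of 12 between the KO-labelled arrays. When a probe had to be measured on each of the 2 arrays compared, 8 of 9 chains had 1 direction at E8.5 and 2 of 11 at E10.5. There the median gap between the highest and the lowest probe was 0.30 and 0.24 for the genotypes at E8.5 and E10.5.

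Probes on the triple helix could be picked out by sequence, because the codons of glycine begin with GG and glycine recurs every 9 bases there. A run of at least 5 such GG pairs, a length chosen after the probes had been seen, was found in 6 of 91 collagen probes and in 16 of 56604 probes in all, or 6.59% beside 0.0283%. None of the 6 was its gene's brightest probe, and 4 were not well above background on any array, beside 33 of the other 85 collagen probes. All 6 carry the repeat that makes a collagen, and 4 are shown as examples of measured and dim probes. They are those of *Col6a3* and *Col22a1*, well above background on 2 arrays and on 1, and those of *Col5a3* and *Col11a2*, on none. Those of *Col15a1* and *Col16a1*, also on none, are not shown. The lines give each probe with the GG of the run in capitals and the sequence 5′ to 3′ as on the array. The positions are longer than the 60 bases of a probe because each of these 4 probes spans an intron.
Col5a3, chr9:20590066-20590795 (mm9): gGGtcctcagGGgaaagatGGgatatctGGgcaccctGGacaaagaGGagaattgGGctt
Col6a3, chr1:92689602-92690594 (mm9): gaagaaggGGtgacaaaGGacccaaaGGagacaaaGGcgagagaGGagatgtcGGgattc
Col11a2, chr17:34189287-34189453 (mm9): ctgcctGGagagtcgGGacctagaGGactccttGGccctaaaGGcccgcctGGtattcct
Col22a1, chr15:71767749-71768433 (mm9): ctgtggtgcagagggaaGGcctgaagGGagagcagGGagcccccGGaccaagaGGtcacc

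The helix probe of *Col5a3* read −7.06 on the WT and −6.80 on the KO-labelled array at E8.5, then −7.00 and −7.05 at E10.5. It was flat and never well above background, while the brightest probe of the gene was measured at E10.5. The helix probe of *Col22a1* was well above background on the WT E10.5 array alone, at −4.36. The values of a chain given here are those of the probe named.

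The counts of the lists below stand beside 11.7% of all genes changed 1.5-fold between genotypes at E8.5 and 7.72% at E10.5. Their stage counts are over genes measured at both stages, beside 15.2% of all such genes that rose by limma and 20.3% that fell. Of 21 genes that fold and modify collagen chains, none was changed 1.5-fold at E8.5 or at E10.5, with medians of 0.07 and −0.03. The former was negative with spike-in scaling or without scaling, and the latter positive with spike-in scaling. The lowest ratio at E8.5 was −0.40. Spike-in scaling moved every ratio there by −0.55 and no scaling by −0.26, and either takes it past 1.5-fold lower. With stage 1 rose and 4 fell by limma. *P3h3*, a prolyl 3-hydroxylase, rose by a log2 ratio of 1.53 in WT and *P3h2*, of the same family, fell by 1.35.

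Of the genes that process and crosslink collagen, 2 of 13 were changed at E8.5 and 2 of 13 at E10.5. *Adamts14*, which trims procollagen, and *Tll1*, a relative of the enzyme that removes the other end, were higher on the KO-labelled array at E8.5, *Adamts14* by a log2 ratio of 0.59, near the threshold and short of it under each other scaling, and *Tll1* by at least 1.67-fold. At E10.5 *Adamts2* gave 0.93. *Lox*, which starts the crosslinks between chains, read −4.16 on the WT and −3.60 on the KO-labelled array at E8.5, then −1.32 and −2.32 at E10.5, and was lower on the latter array by more than 1.5-fold. With stage 7 rose and 4 fell, *Lox* by 2.84 in WT, and *Tll1* was at least 4.05-fold higher at E10.5.

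None of 14 basement membrane partners at E8.5 and none of 15 at E10.5 was changed 1.5-fold between the genotypes. The lowest ratio at E8.5, −0.16, passes 1.5-fold lower with spike-in scaling, which moved every ratio there by −0.55. Of 14 measured at both stages 4 rose and 7 fell with stage. *Lama2*, a laminin chain of muscle, rose by 3.18 in WT, and *Lamc3*, measured at E10.5 alone, was at least 15.9-fold higher there.

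Of the proteoglycans and glycoproteins of fibrils, 3 of 14 were changed at E8.5 and 2 of 17 at E10.5. *Postn*, which codes for periostin, read 0.96 on the WT and 1.72 on the KO-labelled array at E8.5, then 1.14 and 2.39 at E10.5. Its ratios were 0.76 and 1.25, with an adjusted p of 0.106 by limma. *Fmod* and *Dcn*, small proteoglycans that bind fibrils, gave 0.93 and −0.65 at E8.5.

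*Acan*, the large proteoglycan of cartilage, was at least 1.63-fold lower on the KO-labelled array at E10.5. Of 14 of these genes measured at both stages 5 rose and 2 fell with stage. *Ogn* and *Prelp*, measured at E10.5 alone, were at least 3.61-fold and 1.95-fold higher at E10.5 in WT.

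Among the receptors, *Itga1* gave 0.74 at E8.5 and *Itga11* gave −0.71 at E10.5, the only calls of 6 and 7 genes. Of 6 receptors measured at both stages 4 rose and 0 fell with stage, *Itga11* by 3.60 and *Ddr2* by 2.87 in WT. Among genes of collagen breakdown, *Timp4* gave −0.69 at E8.5, the only call of 11, and 0 of 9 were called at E10.5. Of 9 of these measured at both stages 5 rose and 1 fell, with *Ctsk* 2.95 higher at E10.5 in WT, and *Mmp9*, measured at E8.5 alone, was at least 2.96-fold lower at E10.5.

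Of the transcription factors of cartilage and tendon, 3 of 11 were changed at E8.5 and 2 of 12 at E10.5. *Sox9* and *Sox5*, which drive the cartilage collagens, gave −0.72 and −0.66 at E8.5, and *Pax1*, of the sclerotome, gave 0.62. At E10.5 *Scx*, of tendon progenitors, gave −0.62 and *Pax1* gave −0.65. Of 11 measured at both stages 6 rose and 1 fell with stage, *Pax1* by 2.97 and *Prrx1* by 2.25 in WT.

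The calls in these lists of collagen partners changed with the scaling. Of the 6 genes higher on the KO-labelled array at E8.5, *Tll1* alone stayed 1.5-fold higher with spike-in scaling, *Tll1* and *Fmod* without scaling, and *Postn* alone with normexp. The other 5 kept positive ratios with spike-in scaling, from 0.05 for *Adamts14* to 0.38 for *Fmod*, and *Pax1* fell short of 1.5-fold under each other scaling. The 4 genes that were lower stayed so with spike-in scaling and without scaling, but *Dcn* and *Timp4* did not with normexp. At E10.5 *Itga11*, *Scx* and *Pax1* fell short of 1.5-fold with spike-in scaling, and *Acan* and *Scx* with normexp. With spike-in scaling 0 genes of these lists fell with stage by limma, and 1 to 3 rose in each list.

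Markers of other cell types are given for the genotypes, beside the 11.7% of all genes changed at E8.5 and 7.72% at E10.5. Stage changes are by limma over genes measured at both stages, beside 15.2% of all genes that rose and 20.3% that fell, and the brightest probe is by its mean over the arrays unless a stage is named. Of the 18 marker genes higher on the KO-labelled array at E8.5, 12 stayed so with spike-in scaling, as did all 10 that were lower. At E10.5 all 7 higher ones and 4 of the 9 lower ones did. All 10 erythrocyte genes were 1.5-fold or more higher on the KO-labelled array at E8.5, and 7 of 10 at E10.5. All 10 rose with stage by a median of 4.56, also with spike-in scaling at 4.85, and limma without the trend called 5. Their median stage ratio was 6.2 in WT (5.64 with bounds) and 2.41 between the KO-labelled arrays. Their summed signal, in units of the array's 75th percentile, came to 15.5 on the WT and 326 on the KO-labelled array at E8.5, then 1102 and 1303 at E10.5. *Hbb-bh1*, whose probe was the brightest, read 3.37 and 7.15 at E8.5, then 8.19 and 8.41 at E10.5, and *Epor* gave log2 ratios of 1.41 and 1.11. *Epor* passed limma for the genotype (adjusted p = 0.0434), but not with spike-in scaling or without the intensity trend. Its fitted log2 difference was 1.26 in the main fit, 1.06 with spike-in scaling and 1.26 without the trend. Over the alternatives its adjusted p ran from 1.95e-18 without a filter to 1.0 with spike-in scaling.

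All 8 endothelial genes had a positive log2 ratio at E8.5, with a median of 0.39 that turned negative with spike-in scaling, and 2 were changed 1.5-fold, *Emcn* at 0.61 and *Cldn5* at 0.89, named after their values were seen and neither changed with spike-in scaling. Their signal summed to 15.3 on the WT and 20.3 on the KO-labelled array at E8.5, then to 23.0 and 21.2, and the probe of *Kdr* was the brightest. At E10.5 0 of 8 were changed, and with stage 4 of 8 rose and 2 fell.

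The yolk sac endoderm genes went the other way, with 9 of 9 below 0 and 6 lower by 1.5-fold at E8.5. Their signal summed to 53.6 on the WT and 35.0 on the KO-labelled array at E8.5, then 25.0 and 20.4 at E10.5, with *Rbp4* at the brightest probe at E8.5 and *Afp*, which carries most of the sum, at E10.5. At E10.5 0 of 8 were changed. With stage 6 of 8 fell, also with spike-in scaling, and 2 rose, of which 0 were called with spike-in scaling. Of these 2, *Afp* gave 0.57 in WT and 0.87 between the KO-labelled arrays. Spike-in scaling moved every ratio by −0.07 in WT and 0.64 between the KO-labelled arrays, which leaves both values of *Afp* positive. The median stage ratio of the 9 was −4.37 in WT and −4.13 between the KO-labelled arrays, or −4.01 and −3.32 with bounds. The part that blood, vessel or yolk sac tissue had in the collagen values was not tested.

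Parietal endoderm genes, with *Sparc* at the brightest probe, summed to 149 on the WT and 154 on the KO-labelled array at E8.5, then to 145 and 151, with 0 of 8 changed between genotypes at either stage, and 2 rose and 2 fell with stage. Their median and lowest log2 ratios at E8.5 were −0.05 and −0.34. Spike-in scaling moved every ratio there by −0.55, which takes both past 1.5-fold lower. Sclerotome and early cartilage genes, with *Hapln1* at the brightest probe, summed to 11.8 and 9.78, then to 10.4 and 8.62. Of these, 2 of 7 were higher and 1 lower at E8.5 and 3 of 8 lower at E10.5, and *Matn1* was not measured on any array. In that list *Cnmd* gave 0.62 at E8.5 and −1.21 at E10.5. With stage 2 of 7 rose and 2 fell.

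The remaining marker lists are given in the same order of arrays. Dermomyotome and muscle genes, with *Meox1* at the brightest probe, summed to 10.9, 13.0, 12.2 and 11.8, with 0 of 3 changed at E8.5 and 1 of 5 lower at E10.5, 1 of 3 up and 1 down with stage, and no array had *Myf5* well above background. Limb and lateral plate mesenchyme genes, with *Pdgfra* at the brightest probe, summed to 27.9, 29.9, 26.8 and 25.3, with 0 of 8 changed at either stage and 2 up and 2 down with stage. The lowest limb ratio at E8.5, −0.10, passes 1.5-fold lower with spike-in scaling, which moved every ratio there by −0.55. Notochord and node genes, with *Foxa2* at the brightest probe, summed to 11.6, 7.76, 4.88 and 3.77, with 2 of 5 lower at E8.5 and 1 of 4 lower at E10.5, with 1 of 4 up and 2 down with stage, and none had *Chrd* well above background.

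Heart genes, with *Myh6* at the brightest probe, summed to 236, 249, 147 and 145, with 1 of 9 higher at E8.5 and 0 of 9 changed at E10.5, and with stage 7 of 9 fell and 2 rose (median −0.88). Neural genes, with *Stmn2* at the brightest probe, summed to 34.0, 30.6, 92.7 and 69.2, with 1 of 8 higher and 2 of 10 lower, and with stage 5 of 8 rose and 0 fell (median 1.54). Surface ectoderm genes, with *Krt18* at the brightest probe, summed to 148, 131, 29.9 and 37.2, with 0 of 7 changed at either stage, and with stage 4 of 7 fell and 2 rose (median −1.31). Spike-in scaling moved every E8.5 ratio by −0.55, which takes the lowest of this list, −0.47, past 1.5-fold lower. At E10.5 it moved every ratio by 0.16, which takes the highest, 0.44, past 1.5-fold higher.

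Macrophage genes, with *Ptprc* at the brightest probe, summed to 5.04, 5.55, 6.45 and 5.94, with 0 of 4 changed and 1 of 6 lower, and with stage 3 of 4 rose and 0 fell. The lowest macrophage ratio at E8.5, −0.47, passes 1.5-fold lower with spike-in scaling, which moved every ratio there by −0.55. Decidua and trophoblast genes, with *Gcm1* at the brightest probe, summed to 43.5, 33.2, 20.3 and 23.6, with 2 of 9 higher and 1 lower at E8.5 and 1 of 7 lower at E10.5. The higher ones, named after their values were seen, were *Prl3d1*, by at least 6.62-fold, and *Prl8a2*, at 1.45, and the lower one was *Gcm1*, at −0.67. With stage 4 of 7 fell and 2 rose (median −1.16). With spike-in scaling limma called 1 rise and 1 fall with stage in each of the heart, surface ectoderm, decidua and notochord lists. It called 4 rises in the neural list, and 1 rise and 0 falls in each of the endothelial, limb, sclerotome and macrophage lists. In the parietal endoderm list it called 0 rises and 1 fall, and in the dermomyotome and muscle list 0 of either. No array had *Tpbpa* well above background, and *Prl2c2* had no probe. The part of these tissues in the collagen values was not tested.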

How the data were processed

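In the scanner output the authors deposited, each intensity had background removed and position on the slide corrected, with no scaling across arrays. Per the file headers it was made with Feature Extraction 10.7.1.1, whereas the submitters' processing notes name 9.5.1.1. A second deposited file holds linear values with an identical distribution in its 4 columns. Spots marked as outliers were dropped, log2 values were averaged over the spots of a probe, and the 75th percentile of the array was subtracted. Positions are those of the array annotation (mm9).

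A pair of arrays was compared where either had the probe well above background, with a threshold of 1.5-fold and no test. In a bound the dim value is replaced by the lowest signal well above background on that array, unless it is higher itself. Genotype and embryonic day were fitted together with limma 3.58.1 in R 4.3.3 over the 32289 probes measured on 2 or more arrays, adjusted by Benjamini-Hochberg across all of these. Tested on simulated data of 32289 probes with even noise, the fit recovered 200 of 200 probes changed 2-fold between genotypes and called 6 others, and 200 of 200 between stages and called 12 others. No effect that differs between stages was simulated. Tables were made with Python 3.11.15 and pandas 2.3.3.

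The members and lists were chosen with earlier results of these data known. All chains were named, with 4 values for those changed between genotypes, the brightest of each class and the 5 largest stage differences in WT. Of partner lists, genes changed between genotypes and the 2 largest stage differences were named, and of marker lists the gene with the brightest probe and those not measured. The run of GG pairs, the split of stage calls by the stages at which a gene was measured, the listing of collagen-named genes outside the rule, the rule for opposite directions at the 2 stages and the spread used to judge moved values were chosen after values were seen. Alternatives were quantile normalization, normexp background correction (offset 50), scaling by spike-in probes, no scaling, the deposited table, other filters, the mean over probes, a 2-fold threshold and limma without the trend.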

Additional observations from a re-analysis of the deposited data

Results flagged for a closer look

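Some genes had log2 ratios of the KO-labelled over the WT array that went opposite ways at E8.5 and E10.5, past 1.5-fold at both stages for genes of the lists or at 1 stage for collagen chains. *Col25a1*, the transmembrane chain found in neurons, gave 0.96 at the earlier and −0.19 at the later stage. The former was below 1.5-fold with normexp and with spike-in scaling, at 0.41 under each. The latter was −0.03 with spike-in scaling, and the other measured probe of the gene gave 0.007 at E10.5. *Col6a2*, of the beaded filaments, gave 0.59 and −0.20, where the former lies just past the threshold (0.585) and fell below it with quantile normalization (0.55), normexp (0.36), spike-in scaling (0.04), no scaling (0.33) and the deposited table (0.55). *Pax1*, the sclerotome factor, gave 0.62 and −0.65. *Cnmd*, a cartilage gene, gave 0.62 and −1.21. The E8.5 values of both also lie just past the threshold and were below it under the same 5 alternatives, at 0.07 with spike-in scaling for each, and at E10.5 *Pax1* was below it with spike-in scaling and *Cnmd* with normexp. With 1 array per group the difference between the stages was not tested for any of them.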

How the results depend on the processing

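No paired analysis was possible because each group has 1 array, and for the same reason no array could be left out. The cause of the differences below was not tested unless named. Counts are of chains or genes changed 1.5-fold, medians are log2 ratios of the chains, and limma counts are of all probes unless chains are named.

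With spike-in scaling the E8.5 genotype comparison had 10 chains and 10207 genes changed with a median of −0.32, and at E10.5 the median was 0.061. Between stages on the KO-labelled arrays 11705 genes changed, the median was 1.58, and *Col18a1* (0.05) and *Col24a1* (0.005) turned positive. Limma called 37 probes for the genotype, and 11 chains and 2633 probes for the stage. Without scaling 3718 genes changed at E8.5 (median −0.026) and 2 chains at E10.5 (median −0.23), the stage medians were 1.47 in WT and 1.25 on the KO-labelled arrays, and limma called 729 probes for the genotype.

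With normexp, 2 chains and 616 genes changed between genotypes at E8.5 and 1 chain and 331 genes at E10.5. Between stages 4752 genes changed in WT (median 0.90) and 3503 on the KO-labelled arrays (median 0.62), and limma called 25 probes for the genotype. Quantile normalization gave 29 such probes, and in the deposited table limma called 40 probes and 1 chain.

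Without a filter, which tests more genes, 11 chains and 6856 genes changed at E8.5, and 8 chains and 5205 genes at E10.5. Between stages 12134 genes changed in WT (median 1.16) and 10878 on the KO-labelled arrays (median 0.54), and limma called 2 chains and 564 probes for the genotype. With a filter on both arrays, which tests fewer, 1465 and 853 genes changed between genotypes, and with one on all 4 arrays limma called 10 probes. At 2-fold, a stricter threshold, 0 chains changed at either stage, with 937 and 615 genes. Between stages 4245 genes changed in WT, and 15 chains and 3584 genes on the KO-labelled arrays.

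With the mean over probes, which takes in probes not well above background, the stage medians were 1.02 in WT and 0.64 on the KO-labelled arrays. *Col16a1* turned to −0.13 and −0.011 between stages and *Col6a3* to −0.32 between genotypes at E8.5. Limma without the trend called 0 probes for the genotype and 6437 for the stage. The count of chains changed between stages in WT, 29, ran from 22 at 2-fold to 33 without a filter. Of the stage calls for single chains 14 were lost with spike-in scaling, that of *Col20a1* with normexp and that of *Col22a1* also without the trend. Chains not called were gained, *Col4a2* under 6 alternatives, *Col5a1* under 5, *Col9a3* under 3, *Col14a1* under 2 and *Col4a5* under 1.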

Other observations

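Genes with collagen in their description lie outside the naming rule, and the listing was made after the values were seen. *Cthrc1*, which codes for a secreted protein with a short collagen repeat, read 1.90 on the WT and 1.45 on the KO-labelled array at E8.5, then 2.20 and 2.24 at E10.5. It rose with stage by a log2 difference of 0.55 (SE 0.15, adjusted p = 0.0183 by limma). Its log2 ratio was 0.305 in WT, short of 1.5-fold, and 0.79 between the KO-labelled arrays. *Ccbe1*, needed for lymphatic vessels, gave −1.07 and −1.35 at E8.5, then −0.76 and −0.99 at E10.5, and neither stage nor genotype was called. *Colq*, the collagen-like tail that anchors acetylcholinesterase, was at least 1.77-fold lower on the KO-labelled array at E8.5. *Adipoq*, *Marco*, *Mmp1a* and *Mmp1b* were not well above background on any array.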
